A study of Mus musculus with 6 samples.

Results

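Expression of 30 genes of the tricarboxylic acid (TCA) cycle, pyruvate oxidation and anaplerosis was described in 3 heart samples of sham-operated mice. The genes were taken by name, and all 30 were present among the 17447 gene symbols of the deposited count table. In the study, RNA sequencing of whole heart tissue from wild-type mice covered 3 sham samples and 3 samples with chronic kidney disease (CKD), all under a single batch label. CKD was produced by subtotal nephrectomy in 2 operations, which removed the poles of the left kidney and later the whole right kidney. The sham mice had the same anaesthesia with ketamine and xylazine, an opened abdomen and exposed kidneys, but no tissue was removed. The sources used here do not give sex, age, strain or the time of sampling, and nothing beyond the replicate numbers says that the samples of a group are separate animals. Each sham sample is called a heart for short, and the spread between them may be technical.

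The row labels were checked first, and the CKD columns failed this check. Spearman correlations across all rows were 0.982 to 0.985 between sham columns and 0.984 to 0.987 between CKD columns, but -0.0586 to -0.0528 between a sham and a CKD column. The members had a median percentile of 98.8 among all rows in sham and 39.8 under the same labels in CKD. In the CKD columns 11 of the 30 rows held fewer than 10 counts in every column, among them Sdha with 0, 1 and 2 counts and Mdh2 with 0, 1 and 0. The sham columns held 22810, 24848 and 26621 counts for Sdha. For this reason no CKD value is read as the level of a gene, and no comparison of CKD with sham is given.

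The sham columns totalled 10480788, 10474487 and 12669724 counts. Levels are given as CPM, the count per 1000000 counts of the column, with the SD over 3 hearts. The 10 genes listed as ventricular cardiomyocyte markers were high in each heart and together took 10.7% to 11.9% of the counts. Whether each is particular to ventricular cells was not tested. Of the 7 skeletal muscle markers listed, the myosins Myh1, Myh2 and Myh4 had 0 counts in all 3 columns, while Ckm at 2890 and Acta1 at 578 CPM, which heart muscle also expresses, were abundant and Tnni2 was at 1.43. Of the 6 fat cell markers, the brown fat gene Ucp1 had 0 counts, while Fabp4, which endothelial cells also express, was at 567 CPM, Cidea at 27.3, Plin1 at 1.75 and Adipoq at 1.73. By counting error alone, a gene at 0 could reach 0.286 CPM at the lowest of these depths. Bulk tissue was sequenced, so fewer cells of a type and less RNA per cell cannot be told apart.

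The TCA cycle oxidises acetyl-CoA in the mitochondrial matrix and delivers electrons to the respiratory chain. Pyruvate enters the matrix through a carrier and is converted to acetyl-CoA by the pyruvate dehydrogenase complex, while fatty acids, the main fuel of the adult heart, supply acetyl-CoA by beta-oxidation. Anaplerotic enzymes such as pyruvate carboxylase and the malic enzymes refill or exchange cycle intermediates, and cytosolic isoforms of some enzymes serve NADPH supply and the malate-aspartate shuttle.

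Most members were among the most abundant transcripts of the sham heart, and the anaplerotic enzymes, Aco1 and Idh1 formed the low end. Together the 30 genes took 2.69%, 2.91% and 2.58% of all counts in sham 1, 2 and 3, a mean of 2.73% ± 0.169 (SD, n = 3). The 25 mitochondrial members took 2.39% ± 0.150, the 4 cytosolic members 0.288% ± 0.0197 and fumarase, whose product works in both compartments, 0.0473% ± 0.000845. All 30 exceeded 10 CPM, 26 exceeded 100 CPM and 7 exceeded 1000 CPM, a level reached by 104 genes in the whole table. Counting error was small at this depth, from 0.470% of the level for Ogdh to 8.03% for Me2. The spread between hearts was larger than the counting error for 29 members, Me2 being the exception. Some lay close to it, such as Aco1 at 4.90% against 4.08% and Fh1 at 1.78% against 1.37%. With 3 hearts a small excess can arise from counting alone. The share of all genes above their counting error is not given, so the 29 are not read as particular to the members.

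To compare levels between genes, CPM was divided by the coding length of each gene in kilobases. On this scale Mdh1 stood highest at 2573 ± 187 CPM per kb, followed by Idh2 at 1861 ± 131, Mdh2 at 1771 ± 82.5 and Cs at 1572 ± 148. The lowest were Me2 at 7.79 ± 0.601, Pcx at 15.1 ± 3.10, Aco1 at 20.2 ± 0.987 and Idh1 at 57.1 ± 5.56. In the full order, the ranges over the 3 hearts did not overlap for 15 of the 29 neighbouring pairs. Idh2, Mdh2, Cs, Pdha1, Ogdh, Sdhd, Sdhc and Sdha formed a run in which each overlapped the next. Coding length leaves out untranslated regions, to which reads also map, so this order is tied to that choice.

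**Figure D1:**
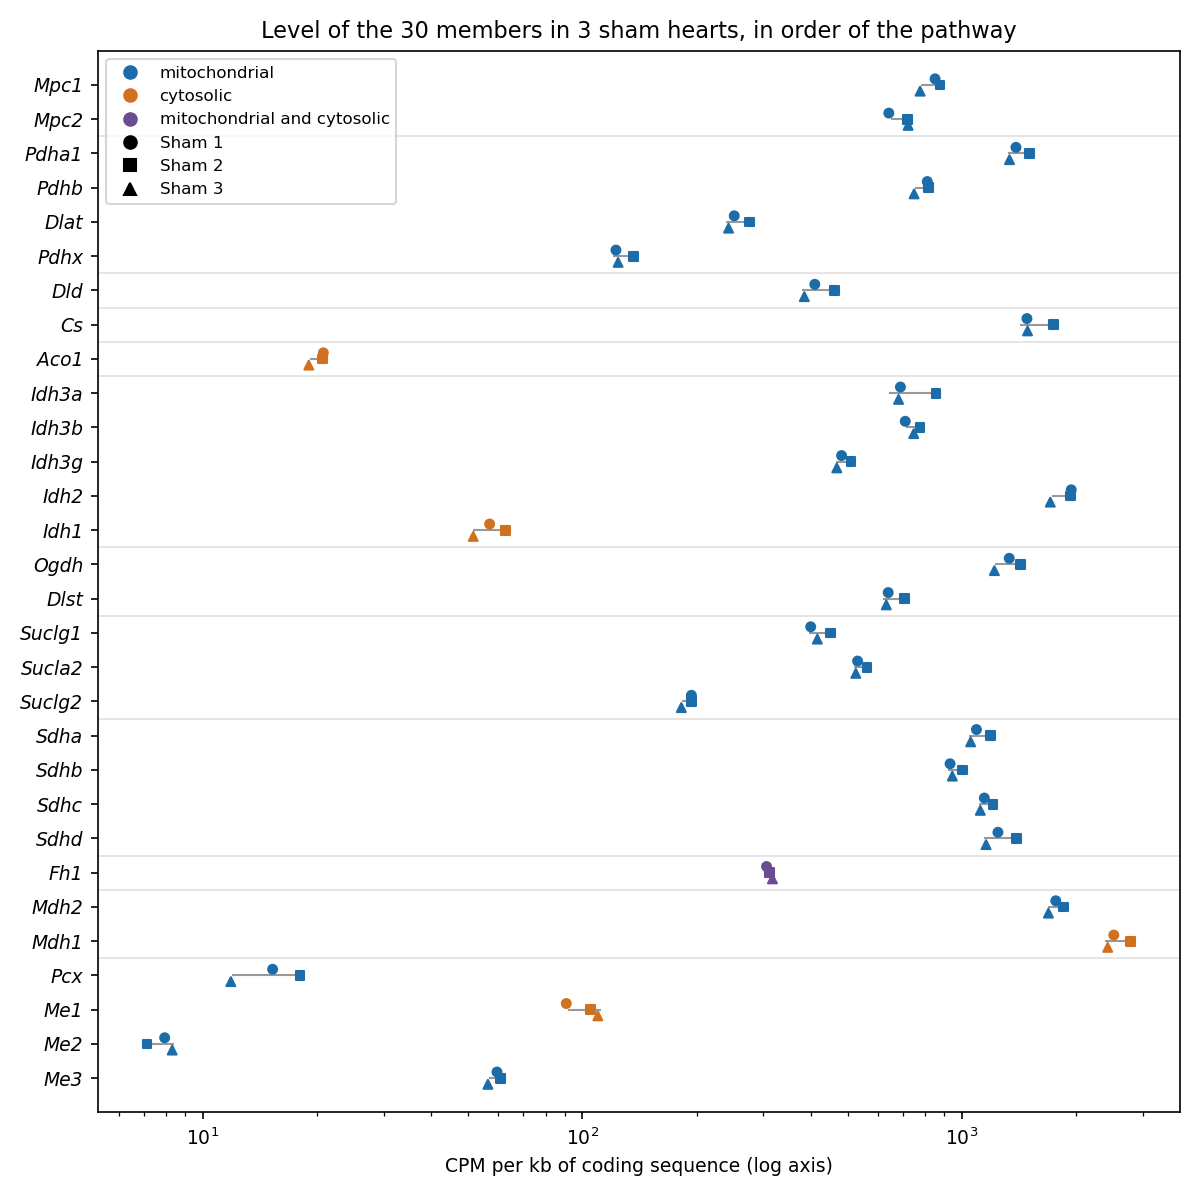
Level of each member in CPM per kilobase of coding sequence (log axis), with 1 symbol per sham heart and a grey line for the mean ± SD. Rows follow the pathway and colours mark the compartment: Mdh1 is the highest at 2573 CPM per kb, and Me2, Pcx, Aco1 and Idh1 lie lowest, from 7.79 to 57.1.

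Pyruvate import and oxidation came first in the order of steps. Mpc1 and Mpc2 encode the partner subunits of the mitochondrial pyruvate carrier. Mpc1 was at 278, 286 and 254 CPM in sham 1, 2 and 3, and Mpc2 at 245, 275 and 275 CPM. Their CPM values overlapped, but per kb of coding sequence they did not, at 776 to 876 for Mpc1 and 642 to 722 for Mpc2. With whole transcript length in place of coding length the log2 ratio of Mpc2 to Mpc1 was -0.28, -0.16 and 0.02. Per kb of coding sequence the ratio of Mpc2 to Mpc1 was 0.755, 0.823 and 0.930 in the 3 hearts. This was among the looser pairs, with a coefficient of variation (CV, the SD over the mean) of 10.5%.

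The pyruvate dehydrogenase complex had unequal transcript levels among its subunits. Pdha1, the E1 alpha subunit that kinases phosphorylate to switch the complex off, was at 1625, 1767 and 1562 CPM. Pdhb, its E1 beta partner, was at 873, 879 and 806 CPM. The partners form E1 in equal numbers, but Pdhb stood at 0.562 ± 0.0216 of Pdha1 per kb. With whole transcript length in place of coding length this log2 ratio moved from -0.83 to -0.04, so the inequality of E1 transcripts depends on the length used. Dlat, the E2 acetyltransferase of the core, was at 484, 530.0 and 468 CPM. Pdhx, which binds E3 to that core, was the lowest of the complex at 184, 205 and 187 CPM, and its ratio to Dlat per kb was 0.499 ± 0.0120. Dld, the E3 dihydrolipoamide dehydrogenase that several complexes share, was at 626, 705 and 587 CPM.

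Cs encodes citrate synthase, which opens the cycle and is widely used as an index of mitochondrial content. It was at 2066, 2426 and 2074 CPM, highest in sham 2 and nearly equal in the other hearts. Aco1 encodes the cytosolic aconitase, which doubles as an iron regulatory protein. It held 581, 578 and 643 counts, or 55.4, 55.2 and 50.8 CPM, and varied by 4.90%.

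The isocitrate dehydrogenases showed the widest gap between compartments among the members. Idh2, the mitochondrial NADP-dependent enzyme, was at 2633, 2618 and 2319 CPM. Idh1, its cytosolic and peroxisomal relative, held 742, 816 and 812 counts, or 70.8, 77.9 and 64.1 CPM. Within each heart Idh2 was 34.1, 30.8 and 33.1 times as high as Idh1 per kb, a mean of 32.7 ± 1.69. Idh3a, Idh3b and Idh3g encode the NAD-dependent enzyme of the cycle proper, whose catalytic subunit is alpha. Idh3a was at 756, 938 and 748 CPM, clearly higher in sham 2 than in the others, with a CV of 13.2%. Idh3b was at 817, 894 and 860.4 CPM and Idh3g at 568, 602 and 552 CPM, with CVs of 4.48% and 4.43%. The ratio of Idh3b to Idh3a per kb was above 1 in sham 1 and 3 and below 1 in sham 2, at 1.03, 1.10 and 0.908. Idh2 stood at 2.53 ± 0.280 times Idh3a per kb, a pair that differs in cofactor and not in compartment. With whole transcript length the log2 ratio to Idh3a moved from 0.01 to 0.65 for Idh3b and from 1.33 to 2.10 for Idh2.

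The 2-oxoglutarate dehydrogenase complex held the gene with the most counts of the 30. Ogdh, its E1 subunit, was at 4091, 4376 and 3738 CPM and ranked 18 among all rows. It is also 1 of the longer members, with 3069 bases of coding sequence, and ranked 6 of the 30 per kb. Dlst, the E2 succinyltransferase, was at 871, 962 and 861 CPM. The ratio of Dlst to Ogdh per kb was 0.480, 0.495 and 0.519, and its mean log2 value moved from -1.01 to -1.60 with whole transcript length.

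Succinyl-CoA ligase joins a shared alpha subunit, Suclg1, to a beta subunit that sets the nucleotide. Suclg1 was at 415, 468 and 432 CPM. Sucla2, the ADP-forming beta subunit, was at 738, 781 and 730.0 CPM, and Suclg2, the GDP-forming beta subunit, at 252, 252 and 237 CPM. The levels of the beta subunits did not overlap, and Sucla2 was 2.74, 2.90 and 2.88 times as high as Suclg2 per kb. The mean log2 ratio of this pair was 1.51, and 2.20 with whole transcript length. Both were among the steadiest members on column totals, with CVs of 3.68% and 3.49%.

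Succinate dehydrogenase, which is also complex II of the respiratory chain, is built from equal numbers of its 4 subunits. Sdha, the flavoprotein, was at 2176, 2372 and 2101 CPM, and Sdhb, the iron-sulfur subunit, at 788, 849 and 798 CPM. The membrane anchors were at 581, 613 and 567 CPM for Sdhc and 594, 664 and 552 CPM for Sdhd. Per kb of coding sequence the subunits lay close together, from 959.6 ± 38.9 for Sdhb to 1265 ± 118 for Sdhd. The log2 ratio to Sdha was -0.21 ± 0.0458 for Sdhb, 0.06 ± 0.0329 for Sdhc and 0.18 ± 0.0455 for Sdhd. This closeness held only on that scale: with whole transcript length the ratios were -0.10, -2.04 and -0.64, since Sdhc has a transcript of 3171 bases around 507 coding bases.

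Fh1 encodes fumarase from a single gene for mitochondria and cytosol. On column totals it was the steadiest member, at 465, 473 and 482 CPM and a CV of 1.78%, near its counting error of 1.37%. With TMM scaling, described below, its SD was 20 CPM in place of 8.45. Malate dehydrogenase differed from the isocitrate dehydrogenases in having a highly expressed cytosolic form. Mdh1, the cytosolic arm of the malate-aspartate shuttle, was at 2519, 2788 and 2427 CPM, and Mdh2, the enzyme that closes the cycle, at 1793, 1882 and 1714 CPM. Mdh1 exceeded Mdh2 in each heart, by 1.45 ± 0.0422 times per kb of coding sequence. With whole transcript length the log2 ratio of Mdh2 to Mdh1 moved from -0.54 to 0.02, so the order of the pair depends on the length used. On either scale the pair lay far closer together than Idh1 and Idh2.

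Anaplerotic enzymes were low beside most other members and took 0.0349% ± 0.00179 of the counts together. By CPM among all rows they were not low, with Me1 at percentile 94.9, Me3 at 90.9, Pcx at 81.0 and Me2 at 54.4. Pcx encodes pyruvate carboxylase, which makes oxaloacetate from pyruvate. It held 566, 668 and 531 counts, or 54.0, 63.8 and 41.9 CPM, and had the highest CV of the 30 at 20.6%. Among the malic enzymes the cytosolic NADP-dependent Me1 was highest, at 156, 181 and 189 CPM. The mitochondrial NADP-dependent Me3 was at 108, 110 and 102 CPM. The mitochondrial NAD-dependent Me2 held 147, 132 and 186 counts, or 14.03, 12.6 and 14.7 CPM, and was the lowest of all members. Per kb, Me3 was at 0.583 ± 0.0718 and Me2 at 0.0770 ± 0.00991 of Me1, without overlap between any of the 3 malic enzymes.

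Over all 17 pairs compared, 16 had the same order in each heart, Idh3b and Idh3a being the exception. This tally is for coding length. With whole transcript length 14 had the same order in each heart, Idh3b with Idh3a among them. Mdh2 with Mdh1, Pdhb with Pdha1 and Mpc2 with Mpc1 did not. Idh3g with Idh3a, Sdhc with Sdha and Sdhd with Sdha are among the 14, but in the opposite order to that on coding length. On coding length the exact two-sided sign-flip permutation test gave p = 0.25 for each of the 16 and 1 for Idh3b with Idh3a (adjusted over the 17 pairs, 0.266 and 1). With 3 hearts 0.25 is the smallest p that this test can give, so no pair could pass a threshold. The within-heart ratios had a median CV of 3.96%, from 2.27% for Sdhc with Sdha to 12.9% for Me2 with Me1. Neither the tally nor these CVs were computed over pairs of other genes, so they are not read as particular to the members.

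**Figure D2:**
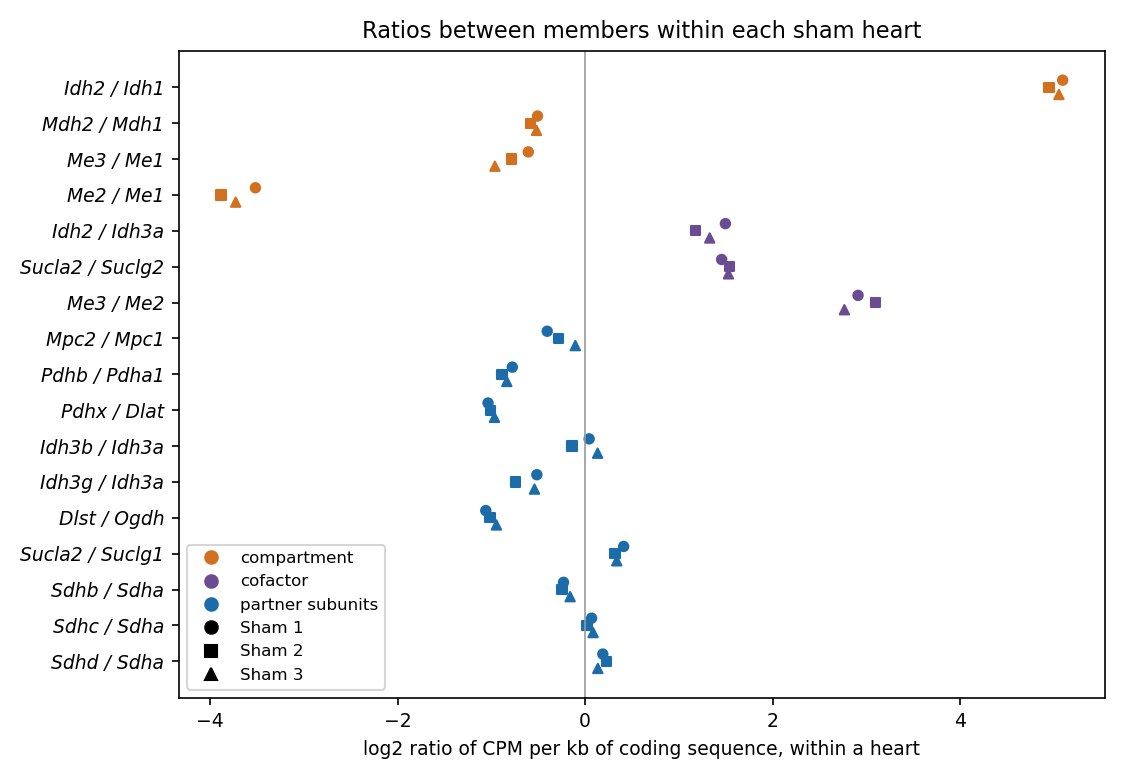
Log2 ratio of CPM per kilobase of coding sequence between named members within a heart, with 1 symbol per sham heart. Colours mark pairs that differ in compartment, in cofactor or as partner subunits; Idh2 with Idh1 lies farthest to the right, at a mean ratio of 32.7, and Idh3b with Idh3a crosses 0.

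On the scale of column totals the members varied little between the sham hearts. Their median CV was 6.27%, against 9.32% over the 8864 genes at 10 CPM or more, and 28 of 30 had a CV under 10%, where 54% of those genes did. Over the 1698 genes at 100 CPM or more the median CV was 7.18% and 69.6% were under 10%, and the 26 members at that level had a median of 6.21%, with 25 under 10%. Idh3a and Pcx were the exceptions to the 10% limit. Pcx was also the sole member that differed by at least 1.5-fold between its lowest and highest heart, at 1.52-fold, where 13.1% of genes at 10 CPM or more did. The next widest was Idh3a at 1.255-fold. The narrow spread was tied to the scaling: with TMM, which centres the bulk of genes, the members had a median CV of 9.96% and genes at 10 CPM or more 9.57%, and 15 of 30 members were under 10%, where 52.7% of those genes were. At 100 CPM or more the genes had a median CV of 8.77% with TMM and 59.3% were under 10%, so the median CV of the members was above both backgrounds on that scale. Without sham 2 the median CV of the members on column totals was 3.19%.

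**Figure D3:**
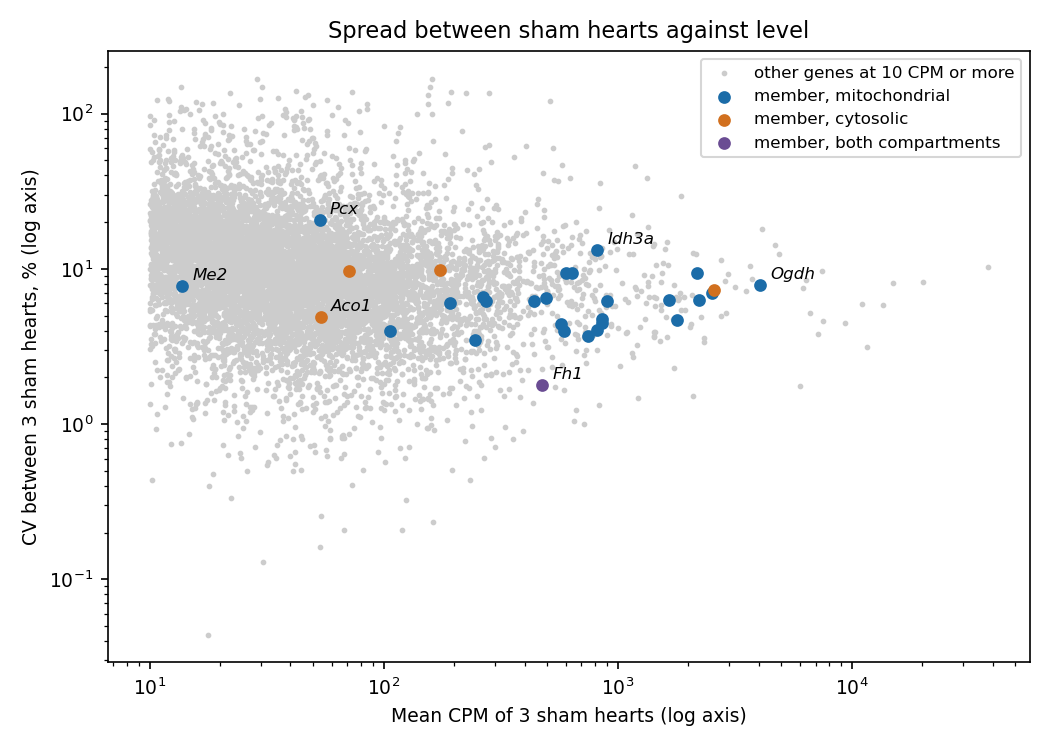
CV between the 3 sham hearts in percent against mean CPM (both log axes), with the members coloured by compartment over all other genes at 10 CPM or more in grey. Most members lie between 3.49% and 9.79%, with Fh1 below at 1.78% and Idh3a and Pcx above at 13.2% and 20.6%.

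What variation there was ran in the same direction for most members. Sham 2 was the highest heart for 23 of the 30, sham 1 for Aco1, Idh2 and Suclg2, and sham 3 for Mpc2, Fh1, Me1 and Me2. Over genes at 10 CPM or more, sham 2 led for 23.5%, sham 1 for 36.9% and sham 3 for 39.6%. At 100 CPM or more, 37.1% of genes and 21 of the 26 members were highest in sham 2. The median member stood at 105% of its own mean in sham 2, 98.4% in sham 1 and 95.1% in sham 3. Sham 3 was the lowest heart for 21 members and sham 1 for 8, among them Mpc2, Fh1 and Me1, while Me2 alone was lowest in sham 2. How many of all genes were lowest in each heart was not counted, so these counts are not read as particular to the members.

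**Figure D4:**
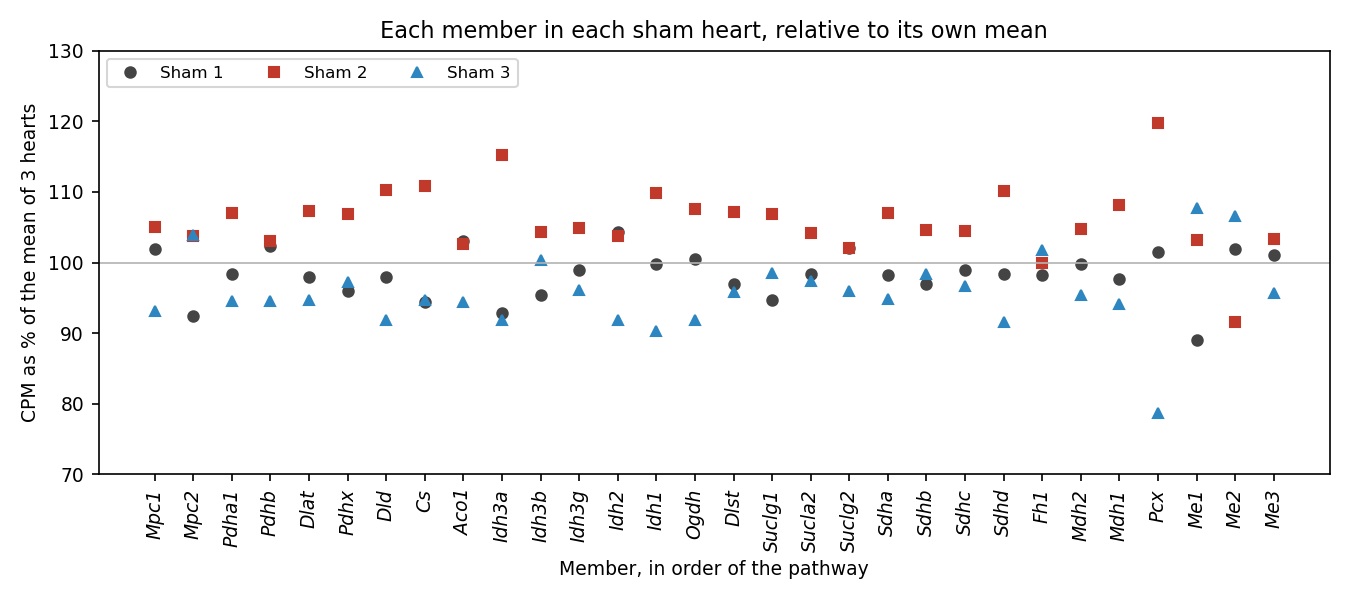
CPM of each member in each sham heart as a percentage of its own mean over the 3 hearts, in order of the pathway. Sham 2 (squares) lies above the others for 23 of 30 members, by most for Pcx and Idh3a, and is lowest for Me2.

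Markers of several cell types also differed between the hearts, though not all lists in the same way. The ventricular cardiomyocyte list took 10.99%, 11.9% and 10.7% of the counts in sham 1, 2 and 3, and 9 of its 10 genes were highest in sham 2. The exception was Myl2, highest in sham 1, at 11812, 10810 and 10565 CPM. Myl3 differed little between hearts, at 5890, 6097 and 6021 CPM. All 8 fibroblast, all 8 endothelial, all 7 macrophage and all 6 atrial markers were lowest in sham 2, as were 6 of 7 smooth muscle and pericyte markers and 4 of 5 erythroid markers. Of the fat cell markers at 1 CPM or more, 2 were lowest in sham 2 and 2 in sham 1, among them Fabp4 at 540, 611 and 550 CPM. Of the skeletal muscle markers at that level, 2 were lowest in sham 2 and 1 in sham 1. The share of all genes lowest in sham 2 was not counted, so these counts are not read as particular to the listed cell types. Erythroid markers together took 0.0111%, 0.00827% and 0.0485% in sham 1, 2 and 3, and all 5 were highest in sham 3. The fibroblast list ran from 0.0964% in sham 2 to 0.224% in sham 3, and the endothelial list from 0.110% to 0.147%. The atrial list took 0.243% in sham 1, 0.00686% in sham 2 and 0.0452% in sham 3. Set against the summed counts of the 10 ventricular markers, the 30 members came to 24.5%, 24.4% and 24.05% in sham 1, 2 and 3, a much narrower range than their share of all counts. On that scale sham 2 was the highest heart for 11 members and 7.42% of genes at 10 CPM or more, the median CV of the members was 3.64%, and 0 members reached 1.5-fold. With TMM scaling sham 2 was the highest for 29 members and 41.2% of genes. The part of cell composition in these differences was not tested.

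Promoter sequence was examined for features that the members share. RefSeq windows (GRCm38.p6, from 250 bases before the start of transcription to 50 after it) matched 27 of the 30, all but Idh3a, Sdhc and Me2. The members' windows had a median GC content of 62.0% and 21 CpG dinucleotides, against 52.8% and 7 over 27025 genes. A TATA box, TATAAA on either strand, was in 0 of 27 member windows and in 15.7% of genes. The core CCGGAAG, read by ETS factors such as GABPA, was in 6 of 27 (22.2%) and in 9.93% of genes. The core GCGCATGC of nuclear respiratory factor NRF1 was in 2 of 27 (7.41%) and in 3.05% of genes, and AAGGTCA, the half-site of estrogen-related receptors, in 2 of 27 (7.41%) and in 5.38%. Both strands were searched, and a match is a description of the letters only. None of the 4 motifs contains another, but CCGGAAG ends with the letters that open AAGGTCA, so a stretch can hold both.

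The matches shown lie wholly before the start of transcription together with 15 bases on each side, and the motif is in capitals. Matches nearer to the start or after it are left out. The lines let the elements beside genes of complex II, the carrier and the dehydrogenases be read. They are written 5′ to 3′ on the strand of the gene, with GRCm38.p6 positions from RefSeq, which is another build than that of the counts.
Sdhb, NRF1 core, chr4:140961202-140961239, plus strand: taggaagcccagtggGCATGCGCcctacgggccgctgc
Ogdh, NRF1 core, chr11:6292528-6292565, plus strand: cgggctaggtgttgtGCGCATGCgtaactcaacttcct
Sdhd, ETS core, chr9:50603874-50603910, minus strand: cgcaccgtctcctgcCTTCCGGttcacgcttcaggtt
Mpc1, ETS core, chr17:8283547-8283583, plus strand: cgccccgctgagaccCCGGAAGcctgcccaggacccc
Idh3g, ETS core, chrX:73786980-73787016, minus strand: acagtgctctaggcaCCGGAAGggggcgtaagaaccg

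Genes that feed, drain or regulate the cycle were read from 9 lists with 57 entries, of which 53 were measured and 49 reached 1 CPM. Sham 2 was the highest heart for 27 of the 49, sham 3 for 14 and sham 1 for 8, and their median CV was 8.86%. Over genes at 10 CPM or more the shares for sham 2, 3 and 1 were 23.5%, 39.6% and 36.9%. The median CV of those genes was 9.32%. That floor is higher than the 1 CPM of the lists. Among carriers of the inner membrane, the phosphate carrier Slc25a3 was at 1820 ± 119 CPM and the oxoglutarate-malate carrier Slc25a11 at 682 ± 56.4. The aspartate aminotransferases, partners of Mdh1 and Mdh2 in the malate-aspartate shuttle, were at 1360 ± 90.1 CPM for Got2 and 1342 ± 249 for Got1. Got1 was at 1275, 1618 and 1133 CPM, and so shared with Cs and Idh3a a clear maximum in sham 2. By their means, the kinases that switch off the pyruvate dehydrogenase complex were led by Pdk2 at 733 ± 128 CPM and Pdk4 at 536 ± 202. In sham 3 the order was turned, with Pdk4 at 738 and Pdk2 at 588 CPM. Pdk4 ran against most members, with 536, 334 and 738 CPM and its lowest value in sham 2. Nnt, the transhydrogenase that makes mitochondrial NADPH, was at 687 ± 87.3 CPM, and Glud1, which makes 2-oxoglutarate from glutamate, at 198 ± 6.94.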

How the data were processed

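RNA of 6 mouse heart samples was sequenced, and the authors deposited 1 table of raw counts, with a row for each gene symbol. The tools named in the submitters' processing notes are Trimmomatic, HISAT2, HTSeq and DESeq, and the build is mm9. Their versions and settings, the annotation and the use of strand are not given in these sources, so reads shared with pseudogenes, paralogs or overlapping genes could shift a level. The rule for the members names the 3 sham columns. CPM was the count over the column total, times 1000000. Coding and transcript lengths came from GENCODE M21 (principal coding transcript, GRCm38), because no RefSeq protein table was used here, and covered all 30 members and 16599 rows. Ratios were tested with an exact sign-flip permutation test in Python 3.11.15. TMM (edgeR 4.0.16) and DESeq2 1.42.0 size factors were alternatives, and no count model was fitted. The calculations were tested on simulated data. All members are named. From each pathway list the 2 genes highest in CPM could be named, with Nnt and Glud1, and 1 item of that rule is not reported here. Members, lists and tests were chosen with earlier results of these data known, and motifs and the scaling by ventricular markers after the values were seen.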

Additional observations from a re-analysis of the deposited data

Results flagged for a closer look

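Of the 30 rows, the row labelled Idh3g was the one with higher values in every CKD column than in every sham column. It held 5342, 5816 and 4724 CPM in CKD, a mean of 5294, against 568, 602 and 552 in sham. It is listed because the CKD columns enter no comparison. The labels of those columns did not correspond to their values, so the value is not read as a level of Idh3g. Groups of 3 are too small for a check on single outlying hearts.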

How the results depend on the processing

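No paired analysis was possible because no comparison of CKD with sham was made, so the shared replicate numbers pair no result. Member CPM moved by less than 1 SD for all 30 under TMM and DESeq2 size factors. The TMM factors ran from 0.955 to 1.03, so a mean over 3 hearts could hardly move, and this tests little. The median CV, given below, moved more. With 3 hearts, dropping 1 shifts a mean by less than 1 SD whatever the values, and so tests nothing. Without the 10 highest rows in the total, CPM rose by 16.4% to 16.6% and the share of the members was 3.18% in place of 2.73% (2.63% to 2.80% with 1 heart left out). The median CV was 9.96% with TMM, 10.3% with DESeq2 size factors and 3.64% with ventricular marker counts (9.57%, 9.64% and 11.6% over genes at 10 CPM or more), and 3.19% to 7.28% with 1 heart left out, lowest without sham 2. Sham 1, 2 and 3 were highest for 0, 29 and 1 members with both TMM and DESeq2, and for 9, 11 and 10 with ventricular marker counts. The shares of genes at 10 CPM or more were 28.97%, 41.2% and 29.8% with TMM, 28.9%, 42.8% and 28.3% with DESeq2 and 38.9%, 7.42% and 53.6% with ventricular marker counts, where 0 members reached 1.5-fold in place of 1 (Pcx). Without length correction the log2 ratios were 5.15 for Idh2 to Idh1, 1.64 for Idh2 to Idh3a, 1.60 for Sucla2 to Suclg2, -1.92 for Sdhc to Sdha and -1.88 for Sdhd to Sdha, the sign being turned for Sdhc and Sdhd. With transcript length they were 5.55 (Idh2 to Idh1), 0.024 (Mdh2 to Mdh1, sign turned), -1.15 (Me3 to Me1), -3.35 (Me2 to Me1), 2.10 (Idh2 to Idh3a), 2.20 (Sucla2 to Suclg2) and 2.19 (Me3 to Me2). Signs also turned with transcript length for Idh3g to Idh3a (0.36), Sdhc to Sdha (-2.04) and Sdhd to Sdha (-0.64). For Idh3b to Idh3a the log2 ratio was -0.049 to 0.088 with 1 heart left out, and -0.0032 without sham 1. These ratios change by construction with the length used. Depth limited Me2 most, at 132 to 186 counts per heart.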

Other observations

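Smaller routes around the cycle were also measured in the sham hearts. The enzymes that turn propionyl-CoA into succinyl-CoA, an anaplerotic entry fed by branched-chain amino acids and odd-chain fats, included Pccb at 152 ± 1.45 CPM and Mmut at 130 ± 3.49 (SD, n = 3). Per kb of coding sequence, Pccb stood at 94.0 ± 0.891 CPM, against 15.1 ± 3.10 for pyruvate carboxylase Pcx. The genes of this route with a coding length, which Mmut lacked, ran from 37.6 to 111 CPM per kb. Transcript length was not used for this comparison. All 6 measured genes of that list reached 1 CPM, with a median CV of 4.54%. Acss1, which activates acetate in mitochondria, was at 479 ± 72.4 CPM, and Acly, which cleaves citrate in the cytosol, at 57.3 ± 8.54.

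Genes that equip the complexes were measured as well. Bola3 and Glrx5, which act in iron-sulfur supply to lipoic acid synthesis, were at 146 ± 11.4 and 62.7 ± 5.07 CPM. Of the assembly factors of succinate dehydrogenase, Sdhaf2 was at 69.2 ± 4.77 CPM and Sdhaf1 at 24.8 ± 1.90. Among paralogs of the members, Ogdhl was at 252 ± 35.6 CPM and Dhtkd1 at 4.91 ± 1.46, and Csl, a citrate synthase relative chosen here after its values were seen, gave 3, 4 and 10 counts.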
